A study of Mus musculus with 4 samples.

Results

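Cycling oligodendrocyte precursor cells (OPCs) are the dividing cells of the oligodendrocyte lineage, and 241 of the 26987 deposited cells met their definition. They were chosen by UMI counts (unique molecules counted per gene and cell): at least 2 UMIs of Olig1 and Pdgfra together, 0 of Mog, at most 1 of Gad1 and Gad2 together, and at least 1 of Top2a and Mki67 together. All had passed a filter of 200 to 6000 genes and under 30% mitochondrial UMIs, which kept 26201 cells, so the members were 0.920% of kept cells. The same gate without the Top2a and Mki67 condition held 2126 cells, 11.3% of them cycling, and its other 1885 cells, with Top2a and Mki67 at 0, are called non-cycling here.

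The cells came from frontal cortex and hippocampus of juvenile mice at postnatal day 18 to 20, sorted for the TdTomato reporter Ai14, which Nkx2-1-Cre switches on in descendants of ventral forebrain progenitors. WT mice carried the Cre and the reporter. Grin1-null littermates carried floxed Grin1 on both alleles as well, so the Cre that labels a cell also deletes the obligate NMDA receptor subunit. Mice of both sexes were used, libraries pooled animals, and papain dissociation was done with tetrodotoxin, APV and actinomycin-D. Each region had 3 WT and 2 Grin1-null libraries: replicate 1 used 10x chemistry v2, replicates 2 and 3 used v3, and no Grin1-null replicate 3 exists.

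OPCs are the glial progenitors that keep dividing after birth, driven in large part by platelet-derived growth factor acting on the receptor encoded by Pdgfra. As they commit to becoming oligodendrocytes they leave the cell cycle, lose Pdgfra, pass through a stage marked by Gpr17, Bcas1 and Enpp6, and then switch on myelin genes. Within a division, genes for DNA synthesis act in S phase, followed in G2 and M phase by genes that condense chromosomes, build the spindle and split the cell.

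Members were found in 9 of 10 libraries, 211 in WT and 30 in Grin1-null cells. WT cortex replicates 1 to 3 held 7, 13 and 23, WT hippocampus replicates 1 to 3 held 31, 53 and 84, Grin1-null cortex replicates 1 and 2 held 0 and 6, and Grin1-null hippocampus replicates 1 and 2 held 2 and 22. The 6 libraries with at least 10 members held 226 of them. These were WT cortex replicates 2 and 3, the 3 WT hippocampal libraries and Grin1-null hippocampus replicate 2. They were used for list levels by library and for the main gene tests in cycling cells. Shares and some values of single genes are also given for the other libraries.

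Pooled over libraries, the median was 2902 UMIs and 1589 genes in a cycling cell against 2808 UMIs and 1540 genes in a non-cycling cell, and mitochondrial UMIs were 1.93% against 2.13%. Within libraries the median cycling cell was deeper in 8 of the 9 with members, for example 2653 against 1435.5 UMIs in WT cortex replicate 2 and 4217.5 against 3611.5 UMIs in WT hippocampus replicate 3. Depth also varied between libraries: the median member had 1309 UMIs in WT hippocampus replicate 2 and 6788 in Grin1-null hippocampus replicate 2. The TdTomato transcript was found in 76.8% of cycling and 74.4% of non-cycling cells. Of the cell barcodes, 95 occurred in more than 1 library; no member shared its barcode with another member, and 2 shared it with some other cell.

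Some libraries stand apart. Xist, the RNA that coats the inactive X chromosome of female cells, had 0 UMIs in both states in replicate 2 of all 4 groups and in Grin1-null hippocampus replicate 1. In the members of WT cortex replicates 1 and 3 it had 43 and 26 UMIs, and in those of WT hippocampus replicates 1 and 3 it had 215 and 296. The Y-linked gene Eif2s3y, chosen after its values were seen, had 3 and 7 UMIs in members of WT cortex replicates 2 and 3, 3, 3 and 15 in WT hippocampus replicates 1 to 3, 2 in Grin1-null cortex replicate 2 and 9 in Grin1-null hippocampus replicate 2. The only Grin1-null library with at least 10 members had no Xist while 2 of 3 WT hippocampal libraries had it, so sex and genotype cannot be told apart for genes that differ between male and female cells.

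The label was checked against markers. Of the 241 members, 189 had UMIs of both Olig1, a transcription factor of the lineage, and Pdgfra; 37 had no Pdgfra and 15 no Olig1. Their median count of the 2 genes together was 8 UMIs, with a maximum of 58. Both Top2a, the topoisomerase that untangles replicated DNA, and Mki67, a coat protein of mitotic chromosomes, were found in 153 members, with 59 lacking Mki67 and 29 lacking Top2a. The median count of these 2 was 5 UMIs, with a maximum of 32, and 54 members had a single UMI while 187 had at least 2. These 4 genes chose the cells, so their levels are given as a description: as counts per 1e6 UMIs of all members summed (CPM), Top2a stood at 1153, Mki67 at 692, Pdgfra at 913 and Olig1 at 1843.

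Members at the Olig1 and Pdgfra edge of the gate were compared with cells just outside. The 24 members with exactly 2 UMIs of Olig1 and Pdgfra had G2 and M phase genes at 18034 CPM and OPC identity genes at 10346 CPM. Just outside, 33 kept cells met every other condition but had a single such UMI; their G2 and M phase genes stood at 16209 CPM and their OPC identity genes at 9909 CPM. S phase genes differed more, at 3728 CPM inside and 6838 CPM outside. Median depth was 1263 UMIs inside and 976 outside.

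The Top2a and Mki67 condition separated 2 groups of cells that differed far beyond those 2 genes. A list of 49 S phase genes and a list of 66 G2 and M phase genes, neither holding Top2a or Mki67, were summed in each cell. The median member carried 25.9 UMIs of the 2 lists per 1000 UMIs, against 1.88 in the median non-cycling cell. Only 4 of 1885 non-cycling cells reached the members' median, and 4 of 241 members lay at or under the non-cycling median, all 4 with a single Top2a or Mki67 UMI. Since the condition itself splits cells along the cell cycle, these and all other contrasts between the 2 states are descriptions and carry no test.

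S phase genes were pooled at 4403 CPM in cycling and 735 CPM in non-cycling cells, a ratio of 5.99. Per library, cycling cells had 3508 and 3968 CPM in WT cortex replicates 2 and 3, 3434, 5292 and 4293 CPM in WT hippocampus replicates 1 to 3, and 5746 CPM in Grin1-null hippocampus replicate 2. Non-cycling cells of the same libraries stayed between 539 and 986 CPM, so the 2 ranges did not overlap. Of 48 S phase genes with at least 20 UMIs in the 2 states together, 46 were at least 2-fold higher in cycling cells, with a median ratio of 9.24. Over all 11649 genes with as many UMIs, 1591 (13.7%) were at least 2-fold higher and the median ratio was 1.03.

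Single S phase genes had ratios of different size. Rrm2, the regulated subunit of ribonucleotide reductase, stood at 253 CPM in cycling and 3.52 CPM in non-cycling cells, and was found in 41.1% against 1.17% of cells. Its partner Rrm1 was at 178 and 13.9 CPM. Tk1, which salvages thymidine, was at 71.1 and 0.766 CPM, and Dut, which clears dUTP, at 342 and 73.9 CPM. Nasp, a histone chaperone with the most UMIs of the list, was at 378 and 114 CPM. The repair exonuclease Exo1 was at 33.7 and 0.613 CPM. Among the smallest ratios was that of the ubiquitin ligase gene Ubr7, at 34.9 and 21.3 CPM.

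G2 and M phase genes reached 21706 CPM in cycling and 1350 CPM in non-cycling cells, a ratio of 16.1. Cycling cells had 23490 and 27352 CPM in WT cortex replicates 2 and 3, 19782, 24670 and 20300.2 CPM in WT hippocampus replicates 1 to 3, and 22666 CPM in Grin1-null hippocampus replicate 2. Non-cycling cells ranged from 1154 to 1618 CPM. All 65 genes of the list with at least 20 UMIs were at least 2-fold higher in pooled cycling cells, with a median ratio of 106, and 64 were higher, by any amount, in each of the 6 libraries. Over all genes, 945 of 11649 (8.11%) were higher in each of the 6.

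Spindle and kinetochore genes picked by the size of their ratio were nearly absent from non-cycling cells. Prc1, which bundles the microtubules of the central spindle, was at 675 CPM in cycling and 1.84 CPM in non-cycling cells. Kif11, the motor that pushes spindle poles apart, was at 254 and 0.919 CPM, and Hmmr, a spindle assembly factor, at 311 and 0.613 CPM. The kinetochore genes Cenpf and Spc25 were at 1191 and 4.14 CPM and at 251 and 0.613 CPM. Bub1, a checkpoint kinase, had 89 UMIs in 27.8% of members and 1 UMI among all non-cycling cells. The spindle gene Ckap2l was at 218 and 0.613 CPM.

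The genes of mitotic entry and exit named here were picked by their level or ratio. So was Esco2, which is not among them and lies outside the G2 and M phase list. Ccnb1, the cyclin that activates Cdk1 at the start of mitosis, was at 447 CPM in cycling and 1.69 CPM in non-cycling cells. Ube2c, which feeds the anaphase-promoting complex with ubiquitin, was at 1300 and 4.14 CPM, with 454 CPM in the lowest and 1831 CPM in the highest of the 6 libraries. The mitotic kinase gene Pbk was at 389 and 1.38 CPM. Esco2, which acetylates cohesin to hold sister chromatids together, had 107 UMIs in members and 3 in non-cycling cells, and Fam64a, a mitotic gene now named Pimreg, had 108 and 3.

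A few G2 and M phase genes were present in both states. Hmgb2, a chromatin protein with the most UMIs of the list, was found in 91.3% of cycling and 18.2% of non-cycling cells, at 2464 and 75.2 CPM. Hn1 (now Jpt1), a microtubule-associated gene, was at 866 and 218 CPM. The smallest ratios were those of Cbx5, a heterochromatin protein, at 352 and 163 CPM, and of Ctcf, which organizes chromatin loops, at 219 and 98.4 CPM.

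**Figure D1:**
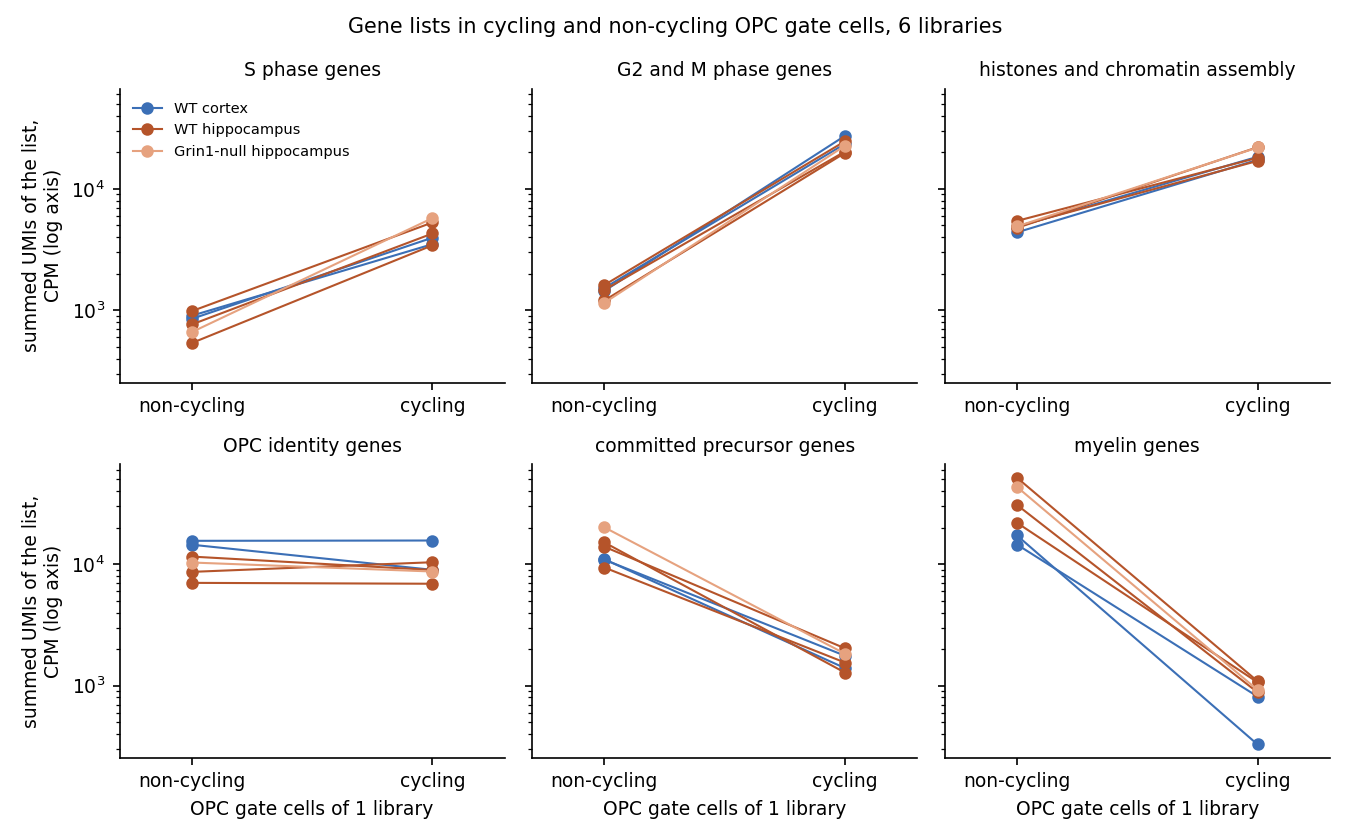
Summed UMIs of 6 gene lists as CPM (log axis) in non-cycling and cycling OPC gate cells; each line joins the 2 states of 1 of the 6 libraries with at least 10 cycling cells, coloured by region and genotype. S phase, G2 and M phase and histone lists lie higher in cycling cells in each of the 6 libraries, committed precursor and myelin lists lower, and OPC identity genes lie higher in 2 of them.

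Members were also grouped by their Top2a and Mki67 UMIs; both are G2 and M phase genes and chose the cells, so the values by group are a description that this grouping partly fixes. S phase genes stood at 4225 CPM in the 54 members with 1 such UMI, 5655 CPM in the 26 with 2, 5048 CPM in the 40 with 3 to 4, 5032 CPM in the 65 with 5 to 9 and 3627 CPM in the 56 with 10 or more. G2 and M phase genes in the same groups stood at 6633, 16980.0, 18591, 25739 and 27556 CPM. The ratio of the 2 sums was 1.57 at 1 UMI and 7.60 at 10 or more, against 1.84 in non-cycling cells. In single cells, S phase UMIs outnumbered G2 and M phase UMIs in 45 members and the reverse held in 193, with 3 ties; among members with 1 Top2a or Mki67 UMI the split was 25 against 26.

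Genes of successive steps, chosen after their values were seen, did not all follow these groups. Mcm5, a subunit of the replicative helicase, was at 85.5 CPM in members with 1 Top2a or Mki67 UMI, 132 CPM in those with 2 and 31.0 CPM in those with 10 or more. It was found in 14.8% of members with 1 UMI and 14.3% of those with 10 or more. Pcna, the sliding clamp of DNA polymerase, was at 71.2 and 83.8 CPM in the lowest and highest groups. Cdk1, the mitotic kinase, was at 135 and 900.4 CPM there, Plk1, a kinase of mitotic entry, at 7.12 and 233 CPM, and Cdc20, which starts anaphase, at 99.7 and 519 CPM. Members with the most Top2a and Mki67 were also deeper, with a median of 5525.5 UMIs against 2436, and the part of depth in these values was not tested.

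**Figure D2:**
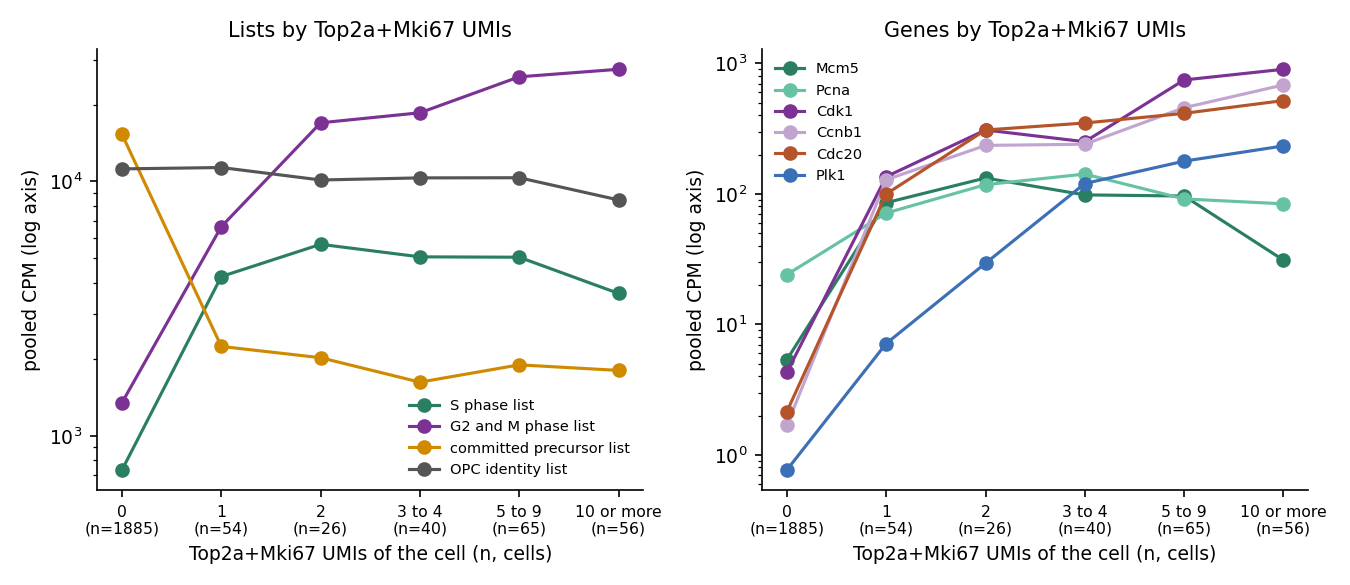
Pooled CPM (log axis) of 4 gene lists and of 6 genes in OPC gate cells grouped by their summed Top2a and Mki67 UMIs, with the number of cells of each group under the axis. G2 and M phase genes stand at 1350 CPM at 0 UMIs and 27556 CPM at 10 or more, while committed precursor genes stand at 15290 CPM at 0 UMIs and between 1625 and 2244 CPM in the groups with 1 or more.

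Sequences upstream of these genes carry the letters known from cell cycle promoters, and the 2 lists differ in them. RefSeq promoters (build GRCm38.p6, 250 bases before to 50 after the gene start) matched 37 of 49 S phase genes with 45 promoters and 56 of 66 G2 and M phase genes with 62 promoters. The cell cycle genes homology region, searched as TTTGAA on both strands, was found in 67.7% of G2 and M phase promoters, 15.6% of S phase promoters and 17.9% of all 32851 promoters of the table. CCAAT, on both strands, was found in 74.2%, 62.2% and 37.4%, and both motifs together in 53.2%, 11.1% and 6.95%. E2F sites, searched as TTTGGCGC or TTTCGCGC on both strands, were found in 4.84% of G2 and M phase, 24.4% of S phase and 0.813% of all promoters. Each motif was searched on its own, and matches of the 2 E2F motifs can overlap each other. A match describes the letters in this window and was not tested for function.

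The 120 bases upstream of the start are printed, 5′ to 3′ on the gene's strand, for 3 G2 and M phase genes with capitals on TTTGAA and CCAAT or their reverse complements, and for 2 S phase genes with capitals on E2F matches. Only genes whose 120 bases held these motifs could be printed, and among them those of highest level in members were taken. Holding the motifs was thus the condition for being shown and is no result about these genes. Hmgb2 (chr8:57511723-57511842, plus strand), Ube2c (chr2:164769809-164769928, plus strand) and Cdk1 (chr10:69352913-69353032, minus strand) each hold 2 CCAAT boxes and at least 1 TTTGAA. Mcm6 (chr1:128359706-128359825, minus strand) and Dtl (chr1:191575545-191575664, minus strand) hold E2F letters; in Mcm6 the longer capital run is TTTGGCGC overlapping the reverse complement of TTTCGCGC. Mcm6 encodes a helicase subunit, at 99.99 CPM in members, and Dtl a licensing regulator, at 39.8 CPM.
Hmgb2: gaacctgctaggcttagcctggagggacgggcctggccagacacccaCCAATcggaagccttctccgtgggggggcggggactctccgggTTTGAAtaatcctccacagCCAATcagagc
Ube2c: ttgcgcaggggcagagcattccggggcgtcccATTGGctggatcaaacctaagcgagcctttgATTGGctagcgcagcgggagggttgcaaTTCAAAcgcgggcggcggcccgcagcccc
Cdk1: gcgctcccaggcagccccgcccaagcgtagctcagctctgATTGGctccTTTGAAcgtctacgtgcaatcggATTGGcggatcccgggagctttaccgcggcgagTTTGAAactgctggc
Mcm6: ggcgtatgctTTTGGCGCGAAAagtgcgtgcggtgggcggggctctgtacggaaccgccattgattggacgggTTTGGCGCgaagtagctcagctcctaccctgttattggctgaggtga
Dtl: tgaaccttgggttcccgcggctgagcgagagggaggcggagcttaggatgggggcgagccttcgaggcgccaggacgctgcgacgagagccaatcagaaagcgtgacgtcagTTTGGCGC

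Regulators of the cycle gave a mixed picture. Of 22 cyclin, kinase and inhibitor genes with at least 20 UMIs, 15 were at least 2-fold higher in cycling cells and 1 lower, with a median ratio of 3.14, against 13.7% and 12.9% of all genes. Among cells with a Pdgfra UMI 11 were higher and 1 lower, with a median ratio of 2.21, against 7.25% and 14.4%. Ccnd1, the cyclin through which growth factors start the cycle, stood at 726 CPM against 177 CPM, and its partner kinase Cdk4 at 539.7 against 471 CPM. Foxm1 and Mybl2, transcription factors of G2 and M phase genes, were at 85.5 against 2.15 CPM and 24.1 against 1.07 CPM. Inhibitors were split: Cdkn2c and Cdkn2d, which block Cdk4 and Cdk6, were at 252 against 19.3 CPM and 167 against 64.0 CPM, while Cdkn1c was at 90.4 against 174 CPM. E2f3, a regulator of S phase entry, was at 8.43 against 19.6 CPM.

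The histone and chromatin assembly list, which also holds tubulin, Stmn1 and Ran, stood at 18308 CPM in cycling and 4893 CPM in non-cycling cells, with 18 of 19 genes at least 2-fold higher, against 13.7% of all genes, and a median ratio of 6.07. H2afz, the replacement histone H2A.Z, was at 4796 and 673 CPM and between 2268 and 7098 CPM in members of the 6 libraries. Stmn1, which destabilizes microtubules, was at 1718 and 94.4 CPM, and the tubulin gene Tubb5 at 2236 and 617 CPM. Replication-coupled histones were found in fewer cells: Hist1h2ap in 14.5% of members and Hist1h1b, a linker histone, in 12.4%. Among all non-cycling cells they had 12 and 2 UMIs. Hist1h2ae, named after its values were seen, had 0, 75 and 0 UMIs in members of WT hippocampus replicates 1 to 3. It had 9 and 14 in WT cortex replicates 2 and 3 and 25 in Grin1-null hippocampus replicate 2. How well these libraries capture such RNAs was not tested. Asf1b, a chaperone that delivers new histones, was at 53.0 and 0.919 CPM. Ran, of nuclear transport and spindle assembly, and Ptma, a chromatin-associated protein, were at 1318 against 623 CPM and 2159 against 1478 CPM.

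OPC identity genes were found in every cycling cell. The list of 24 genes was at 9750 CPM in cycling and 11189 CPM in non-cycling cells, higher in cycling cells in 2 of 6 libraries, with a median ratio of 1.11. Among cells with a Pdgfra UMI it was lower in cycling cells in each of the 6 libraries, with ratios from 0.442 to 0.842, a median ratio of 0.646, and 0 of 24 genes at least 2-fold higher and 4 lower, where 7.25% and 14.4% of all genes were. Cycling cells of WT cortex replicates 2 and 3 had 8986 and 15668 CPM, those of WT hippocampus replicates 1 to 3 had 6906, 10382 and 8956 CPM, and those of Grin1-null hippocampus replicate 2 had 8707 CPM. Ptprz1, a receptor phosphatase with the most UMIs of the list, was found in 97.9% of members, at 1741 against 965 CPM. Cspg4, which encodes the NG2 proteoglycan, was at 271 against 108 CPM, and the adhesion gene Cntn1 at 941 against 544 CPM. Cacng4, an AMPA receptor auxiliary subunit, was at 571 against 254 CPM, and Rlbp1, a retinoid carrier, at 199.98 against 48.1 CPM. C1ql1, a secreted synaptic ligand, was at 671 against 599.7 CPM. Of the list, 4 genes were at least 2-fold higher and 3 at least 2-fold lower, where 13.7% and 12.9% of all genes were; 5 were higher and 7 lower in each of the 6 libraries, as were 8.11% and 11.6% of all genes. The lowest ratios were those of Cd9, a tetraspanin, at 1038 against 3648 CPM, and Neu4, a sialidase, at 79.5 against 263 CPM.

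The non-cycling cells were a broader mixture along the lineage. Only 34.9% of them had a Pdgfra UMI, against 84.6% of members, and 785 of 1885 carried at least 1% of their UMIs on myelin genes, against 1 of 241 members. Cycling cells were therefore also compared with the 658 non-cycling cells in which Pdgfra was detected, using the 204 members with a Pdgfra UMI. In these cells the S phase ratio was 3.71, the G2 and M phase ratio 12.8, the histone ratio 3.64 and the OPC identity ratio 0.651. Over all genes, 845 of 11649 (7.25%) were then at least 2-fold higher and 1672 (14.4%) at least 2-fold lower in cycling cells.

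Genes of committed precursors were low in dividing cells. The list of 18 stood at 1902 CPM in cycling and 15290 CPM in non-cycling cells, a ratio of 0.124, and at 0.444 among cells with a Pdgfra UMI. All 18 genes were at least 2-fold lower, and lower in each of the 6 libraries, with a median ratio of 0.117, while among cells with a Pdgfra UMI 10 of 18 were at least 2-fold lower, with a median ratio of 0.482; over all genes 1507 (12.9%) were at least 2-fold lower and 1347 (11.6%) were lower in each of the 6. In cycling cells the list ranged from 1281 to 2030.0 CPM over the 6 libraries, and in non-cycling cells from 9387 to 20103 CPM.

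Enpp6, a choline phosphodiesterase of newly forming oligodendrocytes, had 1 UMI in 241 members (1.20 CPM, 95% counting interval 0.0305 to 6.71) and 2943 UMIs, 451 CPM, in non-cycling cells. Bcas1, a marker of early myelinating cells, was at 408 against 3025 CPM, and the kinase gene Fyn at 305 against 2328 CPM. Sirt2, a tubulin deacetylase, was at 225 against 4834 CPM, and Frmd4a, a scaffold gene, at 13.3 against 416 CPM. Gpr17, the receptor that marks the committed stage, was still found in 51.0% of members, at 283 against 779.7 CPM. The transcription factor genes Nkx2-2 and Zfp488 were at 79.5 against 185 CPM and 13.3 against 36.9 CPM.

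Myelin genes were also low. The list of 15 was at 953 CPM in cycling and 30435 CPM in non-cycling cells, a ratio of 0.0313, and at 0.446 among cells with a Pdgfra UMI; 13 of 14 genes were at least 2-fold lower, and 9 among cells with a Pdgfra UMI, against 12.9% and 14.4% of all genes. Mbp, a protein of compact myelin, stood at 148 against 8902 CPM. Cnp, an enzyme of uncompacted myelin, was at 275 against 3742 CPM, Mag, an adhesion protein between myelin and axon, at 20.5 against 1468 CPM, and Ugt8a, which makes myelin galactolipids, at 108 against 665 CPM. Car2, Opalin and Aspa were low in both states, with 9, 4 and 2 UMIs in members. Genes outside the lists with very low levels in members were 9530059O14Rik, with 1 UMI against 1438, Epcam and Cnksr3, with 2 each against 1205 and 1222, Gm15440, with 2 against 1648, Tmem125, with 1 against 449, and RP23-416H10.8, with 1 against 422.

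Growth factor and Notch pathway genes depended on the cells compared. Of 41 genes, 20 were at least 2-fold higher and 5 lower, with a median ratio of 1.90, against 13.7% higher and 12.9% lower over all genes. Among cells with a Pdgfra UMI, 2 were higher and 8 lower, with a median ratio of 0.882, against 7.25% and 14.4% over all genes, while the list's sum had a ratio of 1.06, from 1.01 to 1.19 over the 6 libraries. Hes5, a Notch target, was at 141 against 26.5 CPM, and Sox11, a transcription factor of immature cells, at 379.5 against 78.9 CPM. Nfia, Nfib and Nfix, nuclear factors of gliogenesis, were at 324 against 138 CPM, 239.7 against 94.8 CPM and 306 against 99.6 CPM. The receptor tyrosine kinase gene Kit was at 16.9 against 2.76 CPM. Fgfr2 and Fgfr3, receptors for fibroblast growth factors, had 1 and 2 UMIs in members against 228 and 80 in non-cycling cells.

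Transmitter receptor UMIs were found in dividing cells. Of 26 glutamate and GABA receptor genes, 6 were at least 2-fold higher and 0 lower in cycling cells, with a median ratio of 1.54, and 1 was higher and 4 lower among cells with a Pdgfra UMI, with a median ratio of 0.763; the shares over all genes were 13.7% and 12.9%, and 7.25% and 14.4%. How much of these UMIs came from neurons of the same libraries was not tested. Gria2, the AMPA receptor subunit that blocks calcium entry, was found in 73.9% of members, at 498 against 473 CPM, and Gria3 was at 148 against 87.6 CPM. The NMDA receptor subunit gene Grin3a was at 119 against 51.3 CPM. Gabra4, a GABA-A receptor subunit, was at 16.9 against 1.84 CPM, and Gabbr1, of GABA-B receptors, at 99.99 against 111 CPM. The kainate receptor gene Grik1 was at 20.5 against 3.98 CPM, Gria1 at 9.64 against 12.9 CPM, and Grm7 had 3 UMIs in members.

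Grin1 itself was sparse. Members had 9 UMIs of Grin1 in 9 cells, 10.8 CPM, against 7.51 CPM in non-cycling cells. These were 2 in WT cortex replicate 3, 2, 1 and 3 in WT hippocampus replicates 1 to 3, and 1 in Grin1-null hippocampus replicate 2, with 0 in the other libraries. With so few counts Grin1 did not enter the gene tests in cycling cells. In non-cycling cells edgeR gave log2 changes, Grin1-null minus WT, of -2.82 in cortex and -1.35 in hippocampus, at adjusted p of 1 and 0.999.

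Markers of other cell types were mostly low. Of 10 microglial markers 9 were at 0 in the members, including C1qb, P2ry12 and Ctss. Of 9 astrocyte markers, Aqp4, Gja1, Gjb6 and Aldh1l1 were at 0, and the list stood at 148 CPM against 541 CPM in non-cycling cells, most of it Slc1a2, a glutamate transporter, at 81.9 against 276 CPM. Neuron and interneuron markers summed to 176 CPM against 215 CPM, led by Sst, Snap25, Npy and Syt1 with 45, 40, 23 and 22 UMIs, and with Slc17a7, Neurod6 and Tbr1 at 0. Mural and fibroblast markers had 4 UMIs in all, with 7 of 9 at 0. Of 9 neuroblast markers Dlx1, Dlx2, Dlx5, Sp9 and Eomes were at 0, and Dcx, a microtubule protein of migrating neuroblasts also found in OPCs, was at 75.9 against 47.8 CPM. The neuroblast list had a ratio of 1.45. Among cells with a Pdgfra UMI its ratio was 0.626, from 0.498 to 0.978 over the 6 libraries. The list of 8 lineage genes stood at 619 against 446 CPM, a ratio of 1.39, and of 0.893 among cells with a Pdgfra UMI. Of the 3 with at least 20 UMIs, 2 were at least 2-fold higher, and 0 among cells with a Pdgfra UMI. Over all genes, 13.7% and 7.25% were. Nkx2-1, which drives the Cre, was at 41.0 against 10.1 CPM, and Emx1, of the dorsal cortex, had 2 UMIs.

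Haemoglobin, endothelial and choroid plexus signals came mostly from single members, while neuron markers were spread over 95 members and astrocyte markers over 90. One cell of WT cortex replicate 2 with 14306 UMIs held 2184 of the members' 2186 haemoglobin UMIs and 156 of their 175 endothelial UMIs (Cldn5, Flt1, Ly6c1, Slco1a4, Itm2a), besides 6 UMIs of Pdgfra and 12 of Olig1. One cell of WT hippocampus replicate 3 with 18638 UMIs held 3439 of 3471 choroid plexus UMIs, among them Ttr, Folr1, Clic6 and Kcnj13, with 0 UMIs of Pdgfra and 4 of Olig1. These 2 mixed cells meet the definition and stay among the 241. The gene tests are given with and without them.

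The share of OPC gate cells that cycled was measured library by library. In WT cortex it was 11.9% (7 of 59), 9.49% (13 of 137) and 11.2% (23 of 205) in replicates 1 to 3, a mean of 10.9% with a standard deviation of 1.23. In WT hippocampus it was 10.0% (31 of 310), 19.5% (53 of 272) and 11.9% (84 of 708), a mean of 13.8% with a standard deviation of 5.03. The 2 regions overlapped, with WT hippocampus replicate 2 alone above the rest. The difference of 2.93 percentage points was no larger than the spread (2-sided exact permutation test over 3 against 3 libraries, p = 0.5, where the smallest possible is 0.1), and it was 0.0745 points without WT hippocampus replicate 2. Within v2 libraries the difference was -1.86 points and within v3 libraries 5.32 points.

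In Grin1-null cortex the share was 0% (0 of 5 cells, for which the 95% interval reaches 43.4%) in replicate 1 and 4.32% (6 of 139) in replicate 2, a mean of 2.16% with a standard deviation of 3.05. Both lay under the 3 WT cortical libraries. The difference of -8.70 points reached the smallest p that 3 against 2 libraries allow (2-sided exact permutation test, p = 0.1), so it cannot pass 0.05 by design. It was -11.9 points within v2 and -6.04 points within v3 libraries. Among gate cells with at least 1000 UMIs, each thinned to 1000, it was -9.40 points. This left out 41 of 137 and 22 of 205 cells in WT cortex replicates 2 and 3. In Grin1-null cortex replicate 2 it left out 6 of 139. Among cells with a Pdgfra UMI the difference was -9.81 points. That value leans on Grin1-null cortex replicate 1, where 2 cells of the gate had such a UMI.

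In Grin1-null hippocampus the share was 5% (2 of 40) in replicate 1 and 8.76% (22 of 251) in replicate 2, a mean of 6.88% with a standard deviation of 2.66. Both lay under the 3 WT hippocampal libraries, the lowest of which had 10.0%, a gap smaller than the spread within WT. The difference was -6.90 points (2-sided exact permutation test over 3 against 2 libraries, p = 0.2, smallest possible 0.1). It was -5 points within v2 and -6.91 points within v3 libraries, and -4.05 points without WT hippocampus replicate 2.

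**Figure D3:**
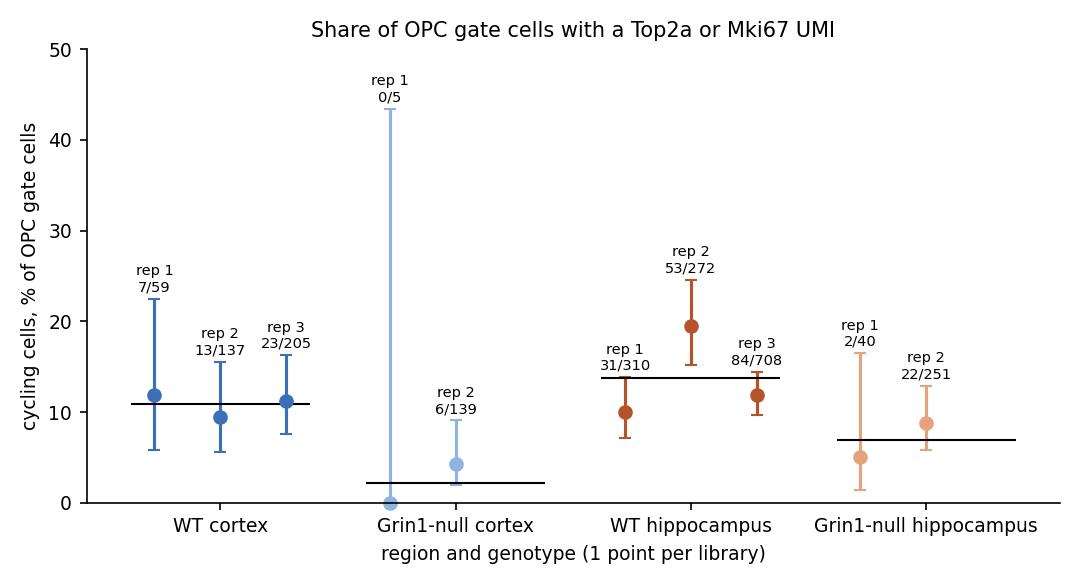
Cycling cells as a percentage of OPC gate cells in each of 10 libraries, grouped by region and genotype; points are libraries with 95% Wilson intervals, black lines are group means, and the numbers give cycling and OPC gate cells. WT libraries lie between 9.49% and 19.5% and Grin1-null libraries between 0% and 8.76%.

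The share was also taken over the cells of the gate with a Pdgfra UMI. Among OPC gate cells with a Pdgfra UMI, the cycling share was 13.3%, 16.2% and 18.2% in WT cortex and 23.2%, 32.5% and 23.8% in WT hippocampus, a difference of 10.6 points with no overlap (2-sided exact permutation test, 3 against 3 libraries, p = 0.1, the smallest possible). Grin1-null libraries had 0% (of 2 cells) and 12.2% in cortex and 13.3% and 40% in hippocampus, where the difference from WT turned to 0.175 points (exact permutation p = 1). Cells with a Pdgfra UMI were 52.8% of the gate in WT cortex, 42.8% in WT hippocampus, and in Grin1-null libraries 34.7% in cortex and 28.7% in hippocampus, a description, as Pdgfra chose the cells. This count of cells was added after the shares had been seen.

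OPC gate cells themselves were 4.62%, 3.58% and 5.22% of kept cells in WT cortex and 14.0%, 5.91% and 22.6% in WT hippocampus. The means of 4.47% and 14.2% differed by 9.68 points with no overlap (2-sided exact permutation test, p = 0.1, the smallest possible for 3 against 3 libraries); without WT hippocampus replicate 3 the difference was 5.47 points. Grin1-null cortex had 2.82% and 5.39% and Grin1-null hippocampus 9.98% and 6.19%, the former on either side of the WT range and the latter inside it (exact permutation p = 0.8 and 0.5).

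Within cycling cells the balance of phases was tested over libraries with at least 10 members. S phase genes averaged 3738 CPM in WT cortex and 4339.7 CPM in WT hippocampus, a difference of 602 CPM, and G2 and M phase genes 25421 and 21584 CPM, a difference of -3837 CPM (2-sided exact permutation tests over 2 against 3 libraries, p = 0.5 and 0.3, smallest possible 0.1). The single Grin1-null hippocampal library, at 5746 and 22666 CPM, lay 1406 and 1082 CPM above the WT hippocampal means (953 to 1882 and 181 to 2625 CPM with each WT library left out); with 1 library no test could pass. Leaving out WT hippocampus replicate 2 brought the S phase region difference to 126 CPM. The G2 and M phase difference was -1906 CPM without WT cortex replicate 3 and -5768 CPM without WT cortex replicate 2. Like the other list sums per library, these hold the 2 mixed cells and were not run without them. In WT cortex replicate 2, 14306 of the members' 48744 UMIs lay in 1 such cell.

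Few genes passed a test between cycling cells of cortex and hippocampus, with few cells per library. In sums of at least 10 cells per library, edgeR tested 2586 genes over 2 WT cortical and 3 WT hippocampal libraries, with 1 Grin1-null library in the same model. With adjusted p required to be under 0.01 and the natural-log change to be 0.1 or more, 8 genes (0.309%) passed, 1 higher and 7 lower in hippocampus, and 98 had an unadjusted p under 0.05. DESeq2 called 4. Of the 8, 7 were genes of the 2 mixed cells: Ttr, found in 28 members of WT hippocampus replicate 3 with 3414 of 3445 UMIs in 1 cell, and Hbb-bs, Hba-a1, Hba-a2, Hbb-bt, Cldn5 and Flt1, whose highest counts in 1 cell were all in WT cortex replicate 2. Without these 2 cells edgeR called 0 of the genes tested, with 114 at an unadjusted p under 0.05.

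The remaining gene was Sparcl1, a secreted matricellular protein of glia. Its members' level was 899, 698 and 356 CPM in WT cortex replicates 1 to 3. In WT hippocampus replicates 1 to 3 it was 51.2, 75.6 and 65.1 CPM, with no overlap. WT cortex replicate 1, with 7 members and 16 UMIs of Sparcl1, was not in the fit. The log2 change was -2.95 (standard error 0.564, edgeR adjusted p = 0.00123; 0.000339 to 1 over the alternatives, passing in 13 of 19), and without the 2 mixed cells it was -2.36 at an adjusted p of 0.0651. In 1 member of WT cortex replicate 2, 20 of 34 UMIs were found. Non-cycling cells had 583, 387 and 417 CPM in WT cortex and 62.6, 104 and 193 CPM in WT hippocampus, a log2 change of -1.75 (edgeR adjusted p = 0.488), and the difference between the 2 states, a log2 value of -1.54, had an adjusted p of 0.234. Astrocyte markers stood at 1002 CPM in WT cortex and 549 CPM in WT hippocampus in non-cycling cells. In cycling cells they stood at 191 and 129 CPM. Their part in the Sparcl1 values was not tested.

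The number of genes called depended on single libraries. It was 1 without WT cortex replicate 2, 15 without WT cortex replicate 3, 1 without WT hippocampus replicate 2, 0 without WT hippocampus replicate 3 and 1 without Grin1-null hippocampus replicate 2. Cell cycle genes did not pass: of 62 G2 and M phase genes tested, 0 passed, 19 were positive and the median log2 change was -0.25, and of 19 S phase genes, 0 passed, 15 were positive and the median was 0.32. Over all 2586 genes, 1346 were positive and the median was 0.04. Of 22 OPC identity genes, 0 passed, with a median of -0.33.

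The region difference was also set against that of non-cycling cells. In a model with library as a block, 0 of 6684 genes (0.0%) differed in their region change between cycling and non-cycling WT cells by edgeR, with 371 at an unadjusted p under 0.05. At an adjusted p under 0.05, 2 genes would pass, Itm2a, an endothelial marker (log2 -3.46), and Parvb, a focal adhesion gene (log2 -8.12), each at 0.0120. Of the members' Itm2a UMIs in WT cortex replicate 2, 19 of 22 lay in 1 cell, as did all 7 of Parvb. Without the 2 mixed cells 0 genes had an adjusted p under 0.01, and the looser level was not run without them. In non-cycling cells 1 of 8247 genes (0.0121%) passed for region, Npy, a neuropeptide of interneurons, with a log2 change of -3.86 (edgeR adjusted p = 0.00374), at 84.5, 82.6 and 180 CPM in WT cortex and 4.08, 5.96 and 9.67 CPM in WT hippocampus. DESeq2 called 3, and edgeR 17 with the replicate number as a block and 0 without WT cortex replicate 3, WT hippocampus replicate 1, WT hippocampus replicate 3 or Grin1-null hippocampus replicate 1. Of the 5 interneuron and neuron markers tested, Npy among them, 0 were positive, with a median log2 change of -1.18, and the whole list stood at 575 CPM in WT cortex and 129 CPM in WT hippocampus. Other lists moved in these cells too. Of 8 astrocyte markers 0 were positive, with a median of -1.16, and of 13 myelin genes 12 were, with a median of 1.20. Over all 8247 genes, 4209 were positive and the median was 0.01. Cycling cells had 2, 2 and 2 UMIs of Npy in WT cortex and 0, 2 and 1 in WT hippocampus.

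Between Grin1-null and WT hippocampus, edgeR called 0 of 2586 genes (0.0%) in cycling cells, with 36 at an unadjusted p under 0.05, and DESeq2 called 0. Without the 2 mixed cells 4 genes passed, Fos, Egr1, Xist and Gm26917, a predicted gene at 14.1 CPM against 12.8, 1588 and 37.995 CPM in WT hippocampus. A single Grin1-null library stood against 3 WT libraries, so its spread was taken from the other groups. The smallest adjusted p was that of Fos, an immediate early gene, named after its value was seen: 543 CPM in Grin1-null hippocampus replicate 2 against 0, 126 and 24.4 CPM in WT hippocampus replicates 1 to 3, a log2 change of 3.56 (standard error 0.716, edgeR adjusted p = 0.0213; 5.5e-05 to 1 over the alternatives, passing in 10 of 18). Its 77 UMIs in that library were spread over members, with at most 9 in 1 cell. The 2 members of Grin1-null hippocampus replicate 1 had 0 UMIs of Fos. In cortex, members had 0, 144 and 136 CPM in WT replicates 1 to 3 and 33.3 CPM in Grin1-null replicate 2.

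Other immediate early genes were also seen in this library. Egr1 was at 606 CPM in Grin1-null hippocampus replicate 2 against 0, 202 and 10.9 CPM in WT hippocampus (log2 3.32, edgeR adjusted p = 0.0883), Ier2 at 162 CPM against 0, 0 and 2.71 CPM, with 205 CPM in WT cortex replicate 2, and Junb at 148 CPM against 0 in all 3. The whole list of 14 stress and immediate early genes, which also holds Jund, Jun, Fosb, Hspa5, Hspa1b and Ddit4, summed to 3081 CPM there against 461, 1537 and 885 CPM in WT hippocampus and 2093 and 1441 CPM in WT cortex replicates 2 and 3. In non-cycling cells the same libraries had 1606 CPM against 525, 2109.8 and 956 CPM, and Fos 97.3 CPM against 0, 98.3 and 5.89 CPM. Among cells with a Pdgfra UMI, however, the list in Grin1-null hippocampus replicate 2 was at 3097 CPM in cycling and 3309 CPM in non-cycling cells. The cell filter kept 4055 of 4436 cells of this library, against 2219 of 2221, 4599 of 4600 and 3135 of 3159 in WT hippocampus. Whether the genotype difference differed between the 2 states was not tested. Of the 8 list genes tested in cycling cells, 7 were positive with a median log2 change of 2.54, against 1148 positive and a median of -0.08 over all 2586 genes.

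Cell cycle and identity genes did not pass between genotypes. In the hippocampal comparison, 0 of 62 G2 and M phase genes passed, 33 were positive and the median log2 change was 0.04; of 19 S phase genes 0 passed, 13 were positive and the median was 0.15; of 22 OPC identity genes 0 passed and the median was -0.11. Over all 2586 genes, 1148 were positive. The adjusted p of Xist was 0.0449, with the levels given above. The TdTomato transcript was at 2186 CPM in Grin1-null hippocampus replicate 2 against 359, 680.4 and 792 CPM in WT hippocampus (log2 1.77, edgeR adjusted p = 1). The count of genes passing was 5 without WT cortex replicate 2 and without WT cortex replicate 3, and 4 without WT hippocampus replicate 1 and without WT hippocampus replicate 2.

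In cortex no Grin1-null library had 10 members, so genotype could not be fitted in cycling cells at that minimum. In sums of at least 5 cells, with 3 WT libraries and 1 Grin1-null library, edgeR called 0 of 2830 genes, with 98 at an unadjusted p under 0.05. In non-cycling cells genotype gave 0 of 8247 genes (0.0%) in cortex, with 1 Grin1-null library, and 0 of 8247 (0.0%) in hippocampus, with 2, by edgeR. There were 213 and 227 at an unadjusted p under 0.05, and 0 and 0 called by DESeq2. With the replicate number, which carries the chemistry, as a block, edgeR called 2 and 14.

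The cycling share of OPC gate cells was far above that of other cells in the same libraries. A Top2a or Mki67 UMI was found in 11.3% of gate cells, against 0.778% of 7581 oligodendrocytes (at least 2 Mog UMIs) and 0.551% of 8166 interneurons (at least 5 Gad1 and Gad2 UMIs), though those cells were deeper, with medians of 6003 and 8913.5 UMIs against 2812. After thinning to 1000 UMIs, with shallower cells left out, the shares were 8.90%, 0.127% and 0.0562% of 1935, 7198 and 8112 cells. Within the gate, the share was 23.7% of 862 cells with a Pdgfra UMI and 2.93% of 1264 cells without. These shares describe the gate, whose Olig1, Pdgfra, Mog and Gad conditions separate the groups, and were not tested.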

How the data were processed

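The authors sequenced 10x single-cell libraries of sorted TdTomato cells from 4 groups of region and genotype. The 4 deposited matrices hold unscaled UMI counts, made by the authors with Cell Ranger against mm10 with extended gene ends (version 2.1.1 per the processing notes, 3.0.2 per the file headers). Whether reads had been thinned to equal depth between the libraries of a matrix was not established. The barcode and feature files hold names only. Libraries were split by barcode suffix and matched to replicates by cell number. Depth ranged from 1488601 UMIs in Grin1-null cortex replicate 1 to 47338167 in Grin1-null hippocampus replicate 2; the 95% Wilson interval of the cycling share was 9.69% to 14.5% in WT hippocampus replicate 3 and 0% to 43.4% in Grin1-null cortex replicate 1. No doublet caller was used.

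UMIs were summed per library and state, sums of under 10 cells left out, and tested with edgeR 4.0.16 in R 4.3.3 (TMM, filterByExpr, quasi-likelihood, Benjamini-Hochberg; passing meant adjusted p under 0.01 with a natural-log change of 0.1 or more, which is 0.144 in log2). The fit was tested on simulated data, where at the estimated spread it missed small and most moderate changes, and for genotype also most of the largest ones, so a count of 0 does not show that groups are alike. Shares and list sums were compared by 2-sided exact permutation over libraries, in Python 3.11.15 (scipy 1.17.1, numpy 2.4.6, matplotlib 3.10.9, pandas 2.3.3). Alternatives were DESeq2 1.42.0, other filters, scalings, models, cell minimums and gate settings, thinning to 1000 UMIs, a replicate block, and each library left out in turn; cells with a Pdgfra UMI, the 2 mixed cells left out, and single chemistries were added after seeing the data.

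The members and the 20 gene lists were chosen with earlier results of these data known. Named genes were Grin1; up to 10 rises and 10 falls passing each test; in each list, the 4 of highest level and the 3 highest and 2 lowest ratios; the 15 highest and 10 lowest ratios among genes with at least 100 UMIs; and Top2a, Mki67, Pdgfra and Olig1. Lhfpl3 was not analysed here.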

Additional observations from a re-analysis of the deposited data

Results flagged for a closer look

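Dividing cells also lay outside the OPC gate. Of 271 kept cells with at least 2 Top2a and Mki67 UMIs, 187 (69.0%) were members and 84 were not, a signal in cells that the comparisons do not use. Of the 84, 60 had fewer than 2 UMIs of Olig1 and Pdgfra, 24 had a Mog UMI and 12 had more than 1 UMI of Gad1 and Gad2, with some cells in more than 1 of these groups. WT hippocampus replicate 2 held 41 of them. Their median depth was 1729.5 UMIs, and they had G2 and M phase genes at 14514 CPM, S phase genes at 4219 CPM, OPC identity genes at 4914 CPM, myelin genes at 27946 CPM and neuron and interneuron markers at 8786 CPM. Choroid plexus and ependymal markers stood at 6563.5 CPM, neuroblast markers at 734 CPM and microglia markers at 644 CPM.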

How the results depend on the processing

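With each library left out in turn, the cycling share kept its direction in all 3 comparisons: 0.0745 to 4.82 points for region, -10.9 to -6.54 for genotype in cortex and -8.79 to -4.05 in hippocampus. OPC gate cells as a share of kept cells ranged from 5.47 to 13.8, from -1.65 to 0.921 (reversed at 0.00970 without WT cortex replicate 3 and at 0.921 without Grin1-null cortex replicate 1) and from -10.2 to -1.86 points. Phase sums ranged from 126 to 1055 CPM (S phase) and -5768 to -1906 CPM (G2 and M phase) for region, and from 953 to 1882 CPM and 181 to 2625 CPM for genotype. Called genes ranged from 0 to 15 for region and 0 to 5 for hippocampal genotype in cycling cells, and in non-cycling cells from 0 to 1 for region, 0 to 0 for cortical and 0 to 1 for hippocampal genotype.

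Of 11 other settings each, the cycling share reversed in 1 for region (-1.86 points in v2 libraries) and in 1 for hippocampal genotype (0.175 points among cells with a Pdgfra UMI), and in 0 for cortical genotype. Called genes for region in cycling cells moved from 8 to 4 with DESeq2, 19 with no count filter, 1 in sums of at least 20 cells, 1 with only the 2 groups compared, and 0 without the 2 mixed cells. For hippocampal genotype they moved from 0 to 2 at an adjusted p under 0.05, 2 with library-size scaling, 8 with no count filter, 5 in sums of at least 20 cells, 5 with only the 2 groups compared and 4 without the mixed cells. In non-cycling cells DESeq2 called 3 for region. The difference of region changes between states moved from 0 to 2 genes at an adjusted p under 0.05 and to 1 in sums of at least 20 cells. The cause was not tested. Other settings for genotype in cortical cycling cells were not run, for lack of a Grin1-null sum of 10 cells.

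With the replicate number as a block, the share differences were 2.93, -8.52 and -7.86 points (exact permutation p = 0.75, 0.5 and 0.5, the last 2 the smallest possible), and called genes were 7 for region and 1, Gm26917, for hippocampal genotype in cycling cells, and 17, 2 and 14 in non-cycling cells for region, cortical and hippocampal genotype. The study describes both WT regions as taken from the same brains, but the labels do not tie the brains to the numbers. Xist was present or absent by the same number in both WT regions, while correlations of the same number between regions were 0.393, 0.312 and 0.0742 over 1335 genes, and cortex replicate 3 correlated best with hippocampus replicate 2 (0.212). The list ratios of the 2 states, restricted to cells with a Pdgfra UMI, are given in the report.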
